A study of Mus musculus with 3 samples.

Results

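The genes described here are 34 mouse genes of the lysosome and of autophagy, chosen by name as lysosomal hydrolases, lysosomal membrane proteins, proton pump subunits, autophagy factors and their transcriptional regulator. The list was drawn up with earlier results of these data known, so counts over it are a description and not an independent result. Of the 34, 33 had at least 1 probe set that the platform annotation assigns to a single gene, and these 33 carried 80 such probe sets. Cd63 had no probe set listed in that annotation and was not analysed here. A filter on dim signals (mean log2 signal at or above the median of all probe sets) kept 32 of the 33 among 10843 genes tested, out of 18193 genes with a probe set. The gene below the filter was Ctsh. The arrays came from NIH3T3, an established line of mouse embryonic fibroblasts. There were 2 arrays of cells carrying the empty vector, titled si-emp1 and si-emp2 and called empty vector 1 and 2 here, whose labels state basal expression and no treatment. The third array, si-RetSat2, carried a hairpin (shRNA) for RNA interference with retinol saturase (RetSat), and its cells are labelled highly resistant to t-BHP (tert-butyl hydroperoxide, an organic peroxide). Its labels give no treatment. The sources used here do not say whether the cells were 1 clone or a pool, or whether separate cultures were grown for the control arrays. The p-values below therefore rest on a spread that may be technical. It comes from the 2 control arrays, mostly through a value shared over all genes, and the single shRNA array adds none. Retsat, the targeted gene, gave signals of 416 and 496 on the control arrays and 69.5 on the shRNA array for the brighter of its probe sets. The dimmer gave 107, 90.3 and 17.7, so Retsat was lowest with the shRNA on both. The series asks which transcripts differ between cells with an shRNA and cells with the empty vector, within a screen for resistance to oxidative stress.

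Lysosomes are acidic organelles in which hydrolases break down proteins, glycans and lipids that arrive by endocytosis or by autophagy. The vacuolar ATPase pumps protons into them, and membrane glycoproteins line and protect the organelle. In autophagy a growing membrane, marked by lipid-bound proteins of the LC3 and GABARAP families, encloses cytoplasm and fuses with lysosomes. TFEB, a basic helix-loop-helix factor, binds CLEAR elements near the start sites of many of these genes. Fibroblasts carry an active lysosomal system under ordinary culture.

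On the RetSat shRNA array most of the lysosome and autophagy genes read slightly above empty vector 2. For none of those tested did the brightest probe set read below both empty-vector arrays. Of the 32 tested members, 18 read higher than both empty-vector arrays, compared with 34.4% of all tested genes, and 0 read lower than both, compared with 25.4%. The other 14, and the untested Ctsh, lay between the empty-vector arrays. Taken array by array, 26 members read above empty vector 2 (49.9% of all tested genes did), 6 below it (Becn1, Gabarapl1, Mcoln1, Gusb, Hexa and Map1lc3b), and 24 above empty vector 1 (59% of all). The choice of probe set and the scaling moved these counts. With all probe sets of a gene averaged in place of its brightest, 14 of 32 members read above both (32.3% of all tested genes) and 7 below both (28.6% of all). With arrays centred on their medians, 23 read above both (45.4% of all tested genes) and 0 below both (18.3% of all). The differences were small. On the log2(signal + 10.2) scale used throughout, the median difference of the members was 0.14 from empty vector 2 and 0.28 from empty vector 1, against 0.00 and 0.14 for all tested genes, so relative to all genes it was 0.14 from each. At a threshold of 0.32 on the log2 scale (a ratio of 5 to 4) from both empty-vector arrays, 2 members (Npc2 and Tfeb) lay above, beside 5.49% of all tested genes, and 0 lay below, beside 6.11%. Tfeb, also in the count of 18, read 21.8 on empty vector 1, below the filter's level of 33.3, and passed through its mean. With the filter at the 75th percentile only Npc2 was left above the threshold, beside 2.74% of all genes. Npc2 fell under the threshold after quantile normalization and with all probe sets of a gene averaged. At 2-fold, 0 members lay above both (0.0922% of all) and 0 below both (0.498% of all). Since bulk RNA was measured, less RNA per cell and fewer cells with the RNA cannot be told apart.

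**Figure D1:**
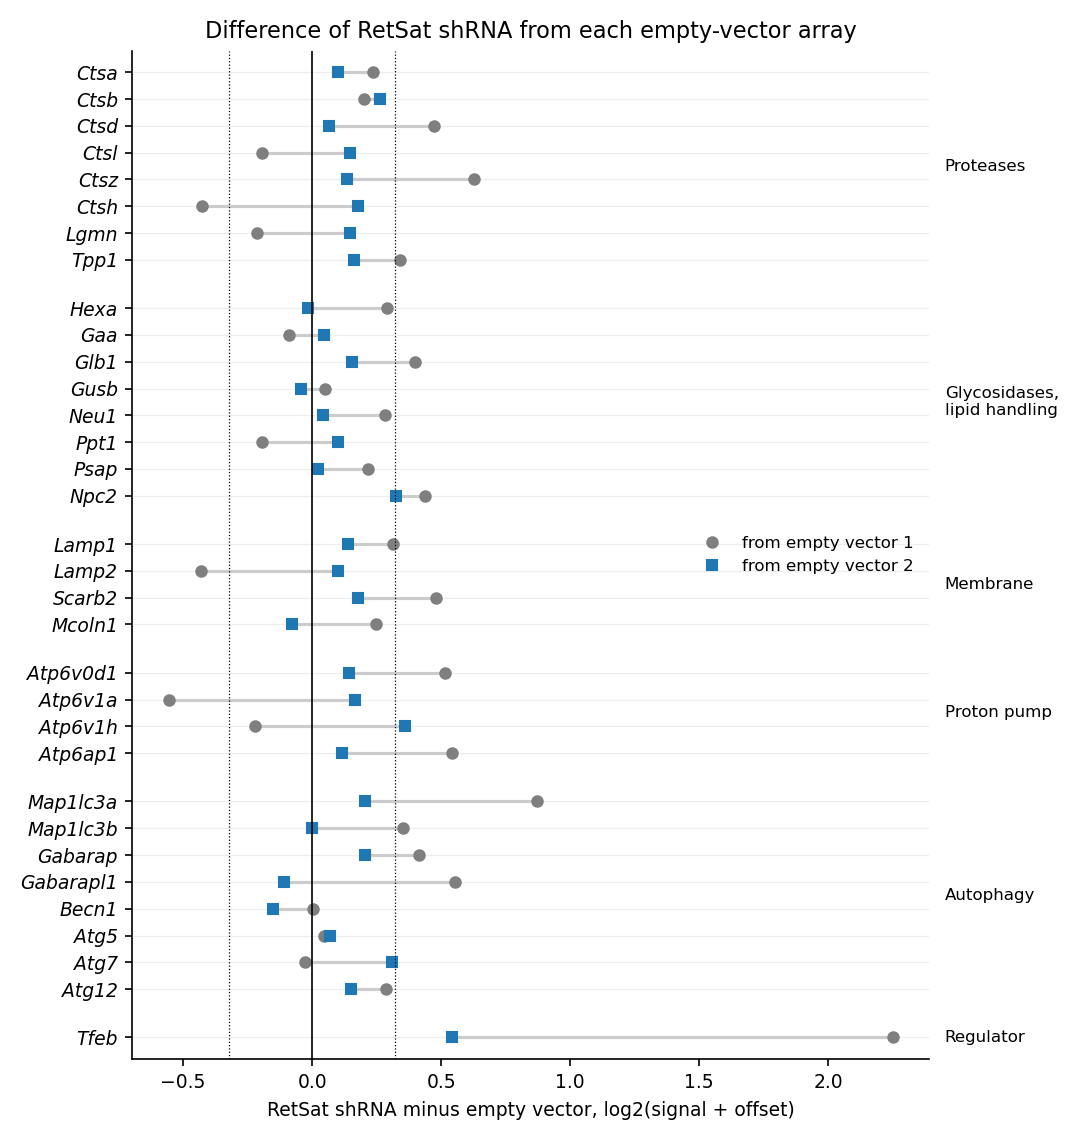
Difference of RetSat shRNA from empty vector 1 (grey circles) and from empty vector 2 (blue squares) for the 33 genes with a probe set, in log2(signal + offset), grouped by role, with dotted lines at 0.32 to either side of 0. For 18 genes both points lie to the right of 0, and for none do both lie to the left. The blue points run from -0.15 (Becn1) to 0.54 (Tfeb).

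None of these differences passed the model. In limma's moderated test, fitted over all 10843 genes with Benjamini-Hochberg adjustment, 0 members had an adjusted p under 0.05 and 0 an unadjusted p under 0.05. Over all tested genes 0 passed (0%), with 108 at an unadjusted p under 0.05, 1 passed with arrays centred on their medians and 7 with a robust variance prior, and no member was among them. Standard errors of the members' log2 differences ran from 0.50 to 0.68. Each gene had 1 residual degree of freedom, from its 2 control arrays, and limma's prior over all genes, with 9.51 degrees of freedom, set most of each standard error. Atg5, whose controls were 0.022 apart, therefore still had a standard error of 0.50.

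Signal level moved with the counts. The members' median level corresponded to a signal of 2190, and 1083 of all tested genes were at least as bright. Of these bright genes 57.7% read above both empty-vector arrays and 67.0% above empty vector 2, compared with 31.8% and 48.0% of the dimmer tested genes. Among the members, 12 of the 16 in the brighter class read above both arrays and 14 above empty vector 2. In the dimmer class 6 of 16 read above both and 12 above empty vector 2. This split by brightness was made after the counts were seen, and its part in the counts was not tested.

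The control arrays differed from each other by more than RetSat shRNA differed from empty vector 2. Over the tested genes, log2 signals correlated at 0.925 for the pair of controls, at 0.985 for the shRNA array with empty vector 2 and at 0.923 for the shRNA array with empty vector 1. These are correlations across genes, which are not independent replicates. The 8 fibroblast markers all passed the filter, with summed signals of 72169, 70267 and 71251 on empty vector 1, empty vector 2 and the shRNA array. Single markers were not level, and some moved in opposite directions, with Pdgfra at 4733, 2172.5 and 1887 and Pdgfrb at 1287, 2548 and 2455. Of 8 macrophage markers, which would bring lysosomal RNA of their own, 2 passed the filter (Cd14 at 569, 480 and 615, and Csf1r at 83.3, 106 and 86.6). The summed signal of the 8, most of it from Cd14, ran from 700.5 to 786. Among the dimmer markers Adgre1 read 29.0, 36.7 and 21.4, Lyz2 22.4, 21.8 and 29.4, and Cx3cr1 3.0, 43.7 and 12.6. Ptprc read 4.4, 5.1 and 15.2, Itgam at most 1.3 and Mpeg1 at most 8.5. The 4 epithelial markers summed to between 188 and 194. The 2 of them past the filter moved in opposite directions, Epcam at 53.8, 122 and 107 and Krt8 at 102, 16.2 and 78.1. The 4 endothelial markers summed to 51.6, 71.4 and 91.3, with none past the filter. Of 6 listed proliferation genes 5 had a probe set, and their signals summed to 21058, 11084 and 11197 on the same arrays in that order. Pcna was level at 10420.2, 10141 and 10310.2, while Mki67 read 3234, 125 and 122, Top2a 5904, 654.5 and 624, Cenpe 910.0, 50.3 and 60.1, and Kif11 589.9, 113 and 80.5, each far higher on empty vector 1. The part of this difference in the members' values was not tested. The 3' to 5' signal ratio of the Actb control probe sets was 1.53, 1.53 and 1.65 in the same order, and for Gapdh the ratios were 0.841, 0.931 and 0.931.

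**Figure D2:**
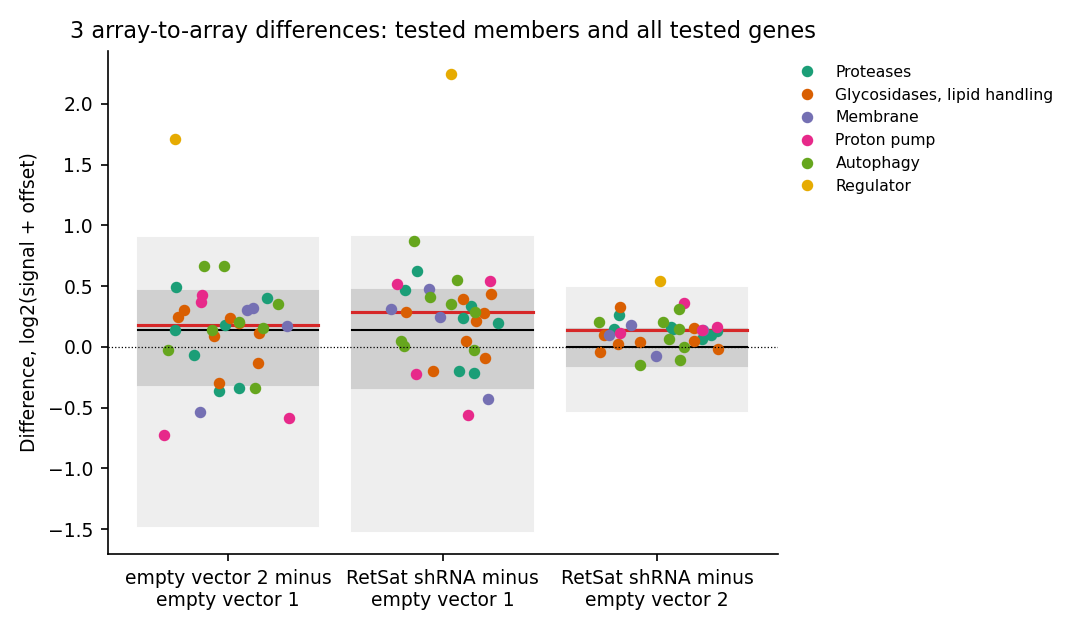
The 3 differences between arrays for the 32 tested members (points, coloured by role), over the central 90% (light grey) and 50% (dark grey) of all 10843 tested genes, with medians of all genes (black line) and of the members (red line). Horizontal scatter of the points is random. The members are spread more widely between the empty-vector arrays (SD 0.45) than between RetSat shRNA and empty vector 2 (SD 0.14).

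Between the empty-vector arrays, members went both ways. On empty vector 2, 9 members were higher than on empty vector 1 by at least 0.32 on the log2 scale (35.4% of all tested genes were) and 6 were lower by as much (24.7% of all). The 9 were Ctsd, Ctsz, Mcoln1, Atp6v0d1, Atp6ap1, Map1lc3a, Map1lc3b, Gabarapl1 and Tfeb, and the 6 were Ctsl, Lgmn, Lamp2, Atp6v1a, Atp6v1h and Atg7. Tfeb was the 1 member that differed by at least 2-fold between the control arrays, beside 12.7% of all tested genes. By the same threshold RetSat shRNA was above empty vector 1 for 13 members (36.3% of all genes) and below it for 2, Lamp2 and Atp6v1a (25.7% of all). Against empty vector 2 it was above by that much for 3 members, Npc2, Atp6v1h and Tfeb (10.7% of all), and below for 0 (11.6% of all). For 27 of the 32 members RetSat shRNA lay closer to empty vector 2 than to empty vector 1, as it did for 77.3% of all tested genes.

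**Figure D3:**
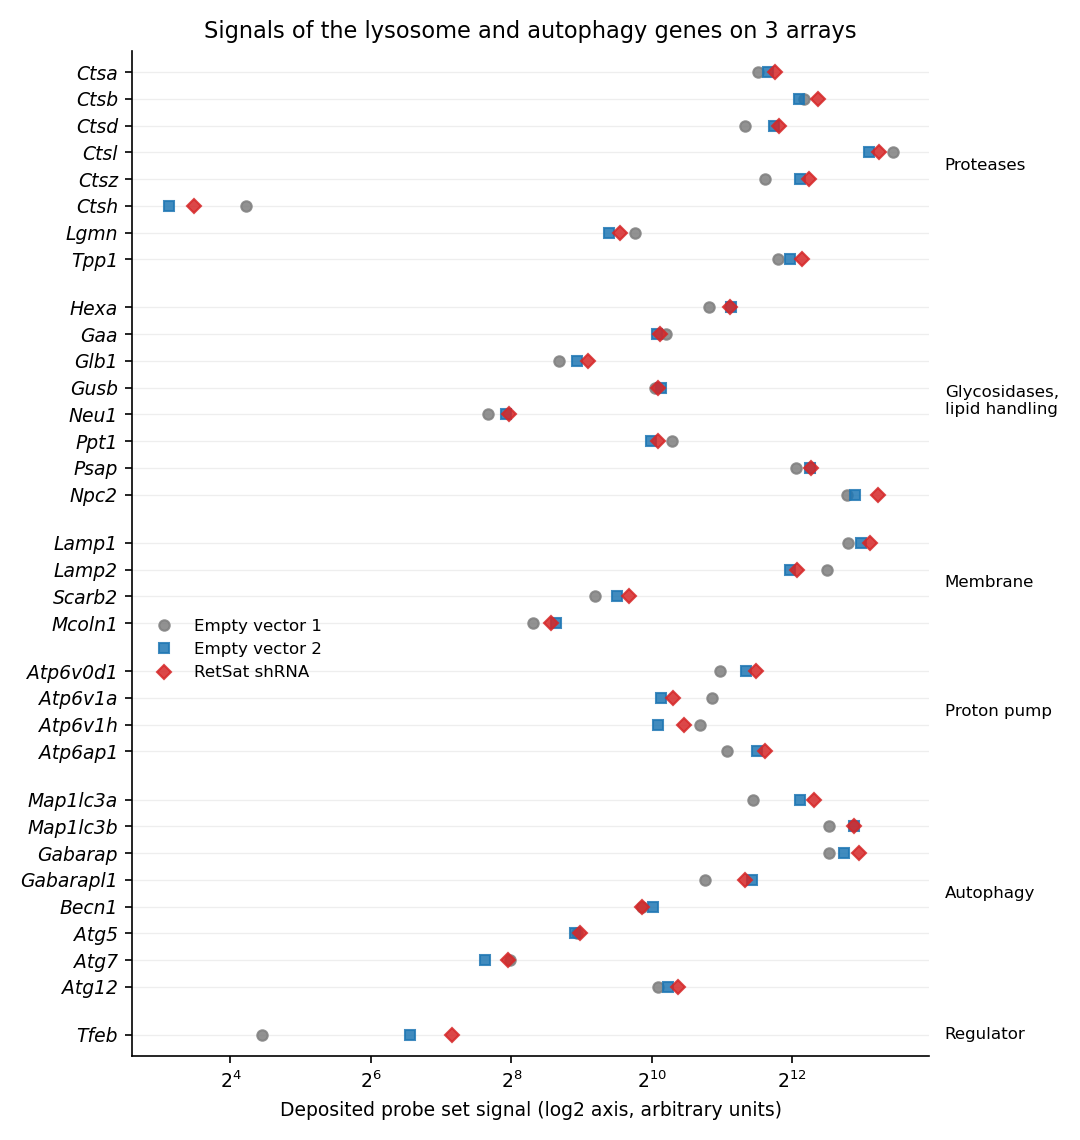
Deposited signals of the 33 genes on empty vector 1 (grey circles), empty vector 2 (blue squares) and RetSat shRNA (red diamonds), on a log2 axis, grouped by role. Positions are to be compared within a gene, since probe sets of different genes differ in brightness. Red and blue points mostly sit together, with the grey point to the left for genes such as Map1lc3a and to the right for genes such as Lamp2.

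Among the proteases, 7 of 8 were tested, 5 read above both empty-vector arrays (34.4% of all tested genes) and all 7 above empty vector 2 (49.9% of all). Ctsz, cathepsin Z, a carboxypeptidase, read 3146 on empty vector 1, 4426 on empty vector 2 and 4859 on RetSat shRNA. The shRNA array was the highest, but the step between the control arrays (0.49 on the log2 scale) was larger than its distance from empty vector 2 (0.13). Ctsd, the aspartic protease cathepsin D, followed the same order at 2581, 3422 and 3584, with a log2 difference of 0.067 from empty vector 2. Tpp1, which removes tripeptides from protein ends, read 3558, 4029 and 4507, and its log2 differences from the control arrays were 0.34 and 0.16. Ctsa, a carboxypeptidase that also protects beta-galactosidase and sialidase in a complex, read 2928, 3222 and 3453. Ctsb, the cysteine protease cathepsin B, read 4587, 4385 and 5267, so the control arrays were close (0.065 apart) and the shRNA array stood above both by 0.20 and 0.26. None of its other 3 probe sets past the filter read above both. The next brightest read 3103, 2543 and 2713, with the shRNA array between the controls, and averaging over its probe sets gave a log2 difference of -0.18 from the mean of the controls. For Ctsl, the cysteine protease cathepsin L, and Lgmn, legumain, which cuts after asparagine, empty vector 1 was the highest array. Ctsl read 11052, 8721 and 9662. Lgmn read 870.1, 675 and 748. In both genes the shRNA array lay between the controls, 0.15 above empty vector 2. Ctsh, the aminopeptidase cathepsin H, was dim at 18.6, 8.7 and 11.2, below the filter, and is described by these signals alone.

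Among the 8 glycosidases and lipid-handling proteins, 4 read above both empty-vector arrays (34.4% of all tested genes). Their median log2 difference from empty vector 2 was 0.045, against 0.00 for all tested genes. Npc2, the soluble carrier that moves cholesterol out of the lysosome, read 7074, 7653 and 9591. The shRNA array exceeded the controls by 0.44 and 0.33 on the log2 scale, and the controls differed by 0.11. Its log2 difference from the mean of the controls was 0.38 (SE 0.50, limma, adjusted p = 1). Glb1, beta-galactosidase, read 409.8, 488 and 543, and Neu1, the sialidase that acts in a complex with it and Ctsa, read 204, 243 and 250.1. Both were highest on RetSat shRNA, by 0.15 and 0.042 on the log2 scale over empty vector 2. Psap, the precursor of the saposins that help hydrolases reach lipids, read 4260.0, 4878 and 4953, which is level with empty vector 2 within 0.022. The other members of this group lay between the control arrays. Hexa, a subunit of beta-hexosaminidase, read 1806, 2238 and 2212, with empty vector 1 the low array. Gusb, beta-glucuronidase, read 1055, 1125 and 1092, and all 3 arrays were within 0.093 of each other. Gaa, the acid glucosidase that degrades glycogen, read 1181, 1075 and 1110.5, and Ppt1, which removes palmitate from proteins, read 1254, 1021 and 1094. In these last 2 genes empty vector 1 was the high array.

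The 4 tested membrane proteins did not share an order of arrays. Lamp1, an abundant glycoprotein of the lysosomal membrane, read 7132, 8054 and 8873, with RetSat shRNA the highest by 0.14 over empty vector 2. Lamp2, its relative, which also takes part in chaperone-mediated autophagy, read 5805, 4013 and 4302. Here empty vector 1 stood highest, 1.45 times the signal of empty vector 2, and RetSat shRNA was 0.43 below it and 0.10 above empty vector 2 on the log2 scale. Scarb2, the receptor that delivers glucocerebrosidase to lysosomes, read 586, 725 and 822 and was highest on the shRNA array, by 0.48 and 0.18. Its second probe set, of similar brightness, read 604, 709 and 621, which put the shRNA array between the controls and 0.19 below empty vector 2. Mcoln1, a calcium-permeable channel of the lysosomal membrane, read 317, 399 and 378, with RetSat shRNA between the controls.

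The 4 subunits of the proton pump did not share an order of arrays either. Atp6v0d1, a subunit of the membrane-embedded V0 part, read 2010.2, 2606 and 2877, and the accessory protein Atp6ap1 read 2162, 2908 and 3148. In both, empty vector 1 was low and RetSat shRNA was the highest array, by 0.14 and 0.11 over empty vector 2. The cytosolic V1 subunits among the members had empty vector 1 as their highest array. Of the other V1 subunits listed, Atp6v1e1 did too, while Atp6v1b2, Atp6v1c1, Atp6v1d, Atp6v1f and Atp6v1g1 were lowest on empty vector 1. Atp6v1a, the catalytic subunit, read 1864, 1125 and 1265, and its log2 step from empty vector 1 to empty vector 2 was -0.72. Atp6v1h, a regulatory subunit, read 1646, 1094 and 1409. It had the second largest distance of RetSat shRNA above empty vector 2 among the members (0.36, after Tfeb), although the shRNA array lay 0.22 below empty vector 1.

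Among the autophagy factors, 4 of 8 read above both empty-vector arrays (34.4% of all tested genes) and 0 below both (25.4% of all). Map1lc3a and Map1lc3b encode LC3 proteins, which become lipid-bound on the autophagosome membrane. Map1lc3a read 2778, 4418 and 5092. Its shRNA array was highest, at 0.87 above empty vector 1 and 0.20 above empty vector 2, while the controls were 0.67 apart. Map1lc3b read 5889, 7513 and 7512, so RetSat shRNA and empty vector 2 had the same level and empty vector 1 was low. Gabarap, of the sister family, read 5914, 6836 and 7890.0, with RetSat shRNA highest by 0.42 and 0.21. Gabarapl1 read 1741, 2764 and 2563, with empty vector 1 low and RetSat shRNA 0.11 below empty vector 2. The conjugation factors also differed among themselves. Atg12, a ubiquitin-like protein joined to Atg5, read 1089, 1197 and 1329.8 and was highest on RetSat shRNA, by 0.29 and 0.15, while its second probe set read 414, 293 and 366, with RetSat shRNA between the controls. Atg5 read 490.1, 483 and 506, all within 0.068. Atg7, the enzyme that activates Atg12 and the LC3 family, read 253, 198 and 248, with empty vector 2 the low array and RetSat shRNA 0.31 above it. Becn1, a subunit of the lipid kinase complex that starts autophagosomes, read 931, 1039 and 934, with RetSat shRNA level with empty vector 1 and 0.15 below empty vector 2.

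Tfeb had the largest differences of any member, and they lay mostly between the control arrays. It read 21.8 on empty vector 1, 94.4 on empty vector 2 and 142 on RetSat shRNA. The shRNA array was the highest and empty vector 1 the lowest. On the log2(signal + offset) scale RetSat shRNA stood 2.25 above empty vector 1 and 0.54 above empty vector 2, and the controls differed by 1.71. The difference from the mean of the controls was 1.40 (SE 0.68, limma, adjusted p = 1, unadjusted p = 0.0648). Tfeb was dim, had 1 probe set, and passed the filter through its mean over the 3 arrays although its signal on empty vector 1 was below the level that the filter corresponds to (33.3). No call of it rests on more than these 3 signals.

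CLEAR elements centre on the palindrome CACGTG, and the longer palindrome TCACGTGA was searched beside it in windows of 250 bases before to 50 after each RefSeq start site (assembly GRCm38.p6). As both are palindromes, each match counts for both strands, and every TCACGTGA also holds CACGTG. Windows were listed for 28 of the 34 members (33 windows). CACGTG was found in windows of 12 of the 28 genes (42.9%), compared with 8.09% of 27025 genes with a window (7.15% of all 32851 windows), and TCACGTGA in 5 of 28 (17.9%), compared with 1.12% (0.974% of windows). The 5 genes were Ctsa, Ctsd, Mcoln1, Atp6v0d1 and Atp6v1a, and the stretches that hold their matches are shown because they are the members with the longer match. Each runs 5′ to 3′ on the gene's strand, with TCACGTGA in capitals:
Ctsa, chr2:164833730-164833784, + strand: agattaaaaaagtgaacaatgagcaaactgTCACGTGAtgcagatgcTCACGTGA
Ctsd, chr7:142387889-142387956, - strand: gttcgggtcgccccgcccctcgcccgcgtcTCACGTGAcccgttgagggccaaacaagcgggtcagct
Mcoln1, chr8:3500443-3500510, + strand: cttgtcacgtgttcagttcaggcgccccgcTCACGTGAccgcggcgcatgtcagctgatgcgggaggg
Atp6v0d1, chr8:105566061-105566098, - strand: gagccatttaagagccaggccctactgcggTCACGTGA
Atp6v1a, chr16:44139354-44139421, - strand: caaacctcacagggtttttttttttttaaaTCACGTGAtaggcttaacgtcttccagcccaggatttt

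Counting from the start site, the match began at base -99 in Ctsd, -46 in Mcoln1, -4 in Atp6v0d1 and -132 in Atp6v1a. Ctsa held 2 matches, beginning at -13 and 5 of the second of its listed start sites. The matches are a description of these windows and no binding was measured. Because CLEAR elements are known near many genes of this kind, a higher share in this list is not an independent result. The 5 genes did not share a direction on the arrays. Their log2 differences of RetSat shRNA from empty vector 1 were 0.24 (Ctsa), 0.47 (Ctsd), 0.25 (Mcoln1), 0.52 (Atp6v0d1) and -0.56 (Atp6v1a). From empty vector 2 they were 0.10, 0.067, -0.077, 0.14 and 0.17. The median from empty vector 2 was 0.10 for these 5 and 0.12 for the other 22 tested members with a window. Of these, 3 of 5 and 12 of 22 read above both empty-vector arrays, beside 34.4% of all tested genes.

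Probe sets of the same gene did not always give the same order of arrays. Of the 80 probe sets, 66 passed the filter. Of these, 30 read above both empty-vector arrays (30.8% of 19518 probe sets with a single gene did), 9 below both (29.2% of all) and 27 between. The 9 below both belonged to 7 genes whose brightest probe set read otherwise: Ctsa, Ctsb, Ppt1, Mcoln1, Atp6v1a, Becn1 and Atg5. Of 21 genes with several probe sets past the filter, 8 had all of them in the same position against the controls, and in 10 all had the same sign between the control arrays. Probe sets of a gene share the gene and the arrays and are not replicates.

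**Figure D4:**
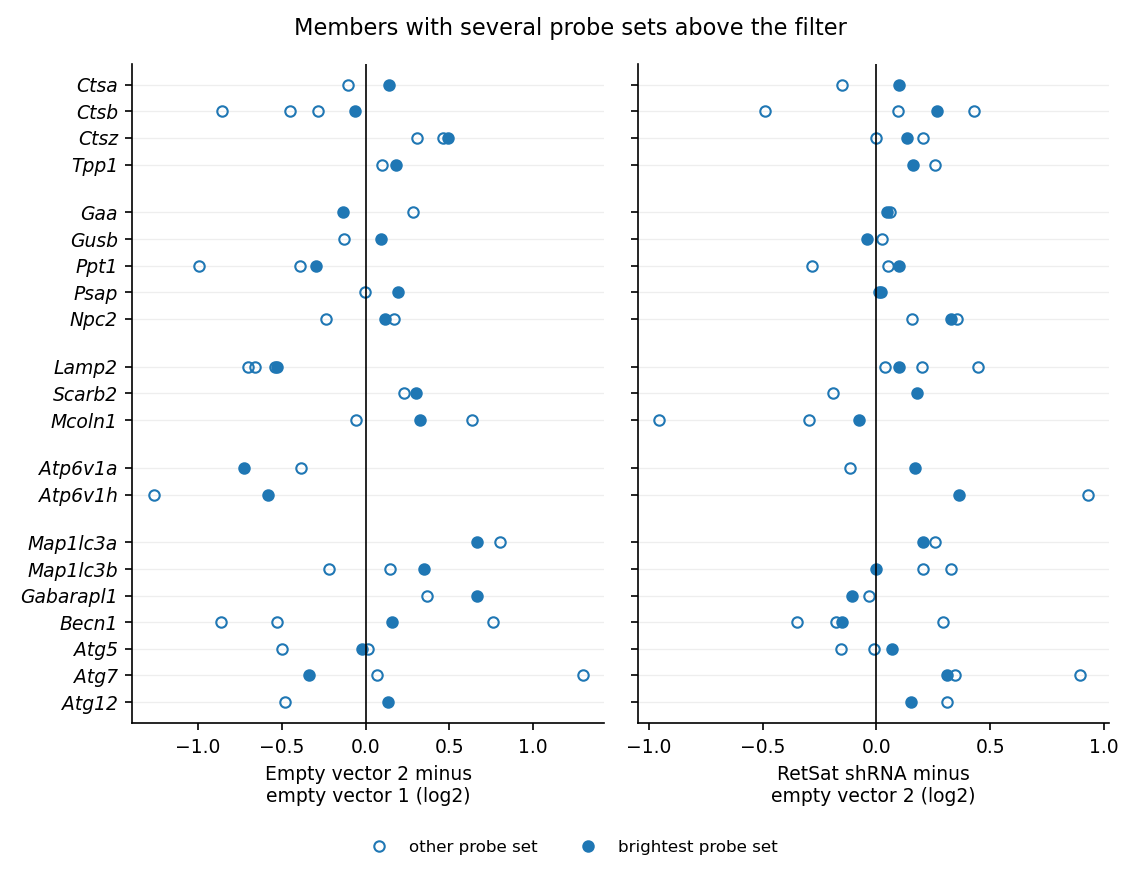
Log2 differences between the empty-vector arrays (left) and between RetSat shRNA and empty vector 2 (right) for each probe set past the filter of the 21 members with several, with the brightest probe set of the gene filled. Points of Map1lc3a, Lamp2, Gabarapl1 and Tpp1 lie on 1 side of 0 within each panel, and those of Becn1 lie on both sides in each.

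The 8 genes with all probe sets in the same position were Tpp1, Gusb, Psap, Npc2, Lamp2, Atp6v1h, Map1lc3a and Gabarapl1. The second probe set of Map1lc3a read 1151, 2013 and 2410.4, in the same order as the first. Lamp2 had 4, and empty vector 1 was the highest array on each, with log2 steps to empty vector 2 from -0.70 to -0.53. RetSat shRNA lay 0.038 to 0.45 above empty vector 2 on these 4. Npc2 had 3, which read 7074, 7653 and 9591, then 6743, 7585 and 8440.0, then 168, 141 and 183, each highest on RetSat shRNA, although the order of the controls was turned on the third. The second probe set of Tpp1 read 393, 420.5 and 504, also highest on RetSat shRNA. For Map1lc3b the brightest probe set was level between RetSat shRNA and empty vector 2, while the next 2, at 2168, 2403 and 2771 and at 2284, 1962 and 2466, were highest on RetSat shRNA. For Becn1 the other bright probe set read 1037, 566 and 443, lowest on RetSat shRNA, where the brightest had placed it between the controls. The second probe set of Atp6v1a read 1696, 1296 and 1195, with RetSat shRNA lowest, and those of Atg5 read 492, 345 and 342 and 333, 336 and 300.0. Atg7 had dimmer probe sets at 80.3, 84.7 and 110.2 and at 13.5, 48.0 and 97.9, both highest on RetSat shRNA. The last of these was below the filter's level (33.3) on empty vector 1 and passed through its mean.

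Of 95 other listed genes of the pathway 82 were tested, and 37 of these read above both empty-vector arrays (45.1%, against 34.4% of all tested genes) and 17 below both (20.7%, against 25.4%). The same shares of all genes, 34.4% and 25.4%, stand beside each group's counts given next. Their median log2 difference was 0.026 from empty vector 2 and 0.28 from empty vector 1. At the threshold of 0.32, 4 lay above both (Galc, Ctsk, Cln3 and Atp6v1g1; 5.49% of all genes) and 2 below both (Ctso and Rb1cc1; 6.11% of all), which is no larger a share than among all genes, and 0 passed limma, with 0 at an unadjusted p under 0.05. Of 22 further hydrolases 9 were above both and 2 below. Ctsk, the collagen-degrading cathepsin K, read 210, 258 and 382, the galactosylceramidase Galc read 36.3, 48.1 and 88.5, and the phospholipase Pla2g15 read 304, 359 and 415.5, each highest on RetSat shRNA. Ctso, cathepsin O, read 174, 167 and 129, lowest on RetSat shRNA. Of 12 further pump subunits 8 were above both and 2 below. Atp6v1g1 read 5818, 7509 and 9728, Atp6v0e read 2934, 3915 and 4636, Atp6v1f read 2786, 3310.3 and 3899, and Tcirg1 read 436, 514 and 586, all highest on RetSat shRNA.

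Of 13 further membrane and sorting proteins 6 were above both arrays and 5 below. Cln3, a lysosomal membrane protein, read 121, 116 and 156, and the mannose-6-phosphate receptor M6pr read 2147, 2299 and 2596. The larger mannose-6-phosphate receptor Igf2r was lowest on RetSat shRNA at 527, 636 and 446, as was Cd68 at 142, 133 and 119.7. Of 25 further autophagy factors 9 were above both and 7 below, shares near those of all genes. Rb1cc1, a scaffold of the initiating kinase complex, read 605, 94.4 and 71.7, and the cargo receptor Nbr1 read 1557, 779 and 679, so the control arrays were themselves far apart. The fusion factor Stx17 read 178, 152 and 122 and the protease Atg4d 93.2, 125 and 153. Of 10 further regulators 5 were above both and 1 below. The Ragulator subunits, which tether mTORC1 signalling to the lysosome, were highest on RetSat shRNA for Lamtor1 (5632, 7286 and 8466), Lamtor4 (1166, 1374 and 1597) and Lamtor5 (1769, 3458 and 3643). Lamtor2 (1016, 1354 and 1293) and Lamtor3 (1371, 1223 and 1334), added after their values were seen to complete the complex, lay between the controls. The TFEB relative Mitf was lowest on RetSat shRNA at 647, 490.3 and 460.3.

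Genomic span moved with the difference between the control arrays. Over 10799 tested genes with a span in RefSeq, the log2 step from empty vector 1 to empty vector 2 correlated with log10 span at -0.25, and the median step was 0.30 in the 2160 genes of shortest span and -0.075 in the 2160 of longest span. Over the 32 members the correlation was -0.32. For the log2 step from empty vector 2 to RetSat shRNA, the correlation with span was -0.11 over all these genes and 0.32 over the members. Map1lc3a, Gabarap, Neu1, Tpp1 and Atp6ap1, of the shortest class, were all higher on empty vector 2, while of Atg5, Atg7, Atp6v1h and Glb1, of the longest class, 3 were lower on it. The points share the same arrays, and the part of span in these values was not tested.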

How the data were processed

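The members and gene lists were chosen with earlier results of these data known. The authors deposited 1 intensity per probe set on a linear scale (45101 probe sets, 3 single-colour arrays), from total RNA labelled with biotin, per the labels' protocols. The software and the summarisation method (not given in the sources used here) could shift dim signals most. The 2% trimmed mean was 250.0 on each array, so no further scaling was applied. Of the probe sets, 34945 had 1 gene symbol in the platform annotation, 932 several, 9160 none, and 64 were controls. Symbols were used as the annotation gives them.

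For each gene, the probe set of highest mean log2 level was taken. Values are log2(signal + 10.2), the offset being the 25th percentile of all signals, so fold changes of dim genes are understated. Genes at or above the median level of all probe sets were tested with limma 3.58.1 (R 4.3.3; lmFit, eBayes, two-sided, Benjamini-Hochberg, threshold 0.05) over the 2 empty-vector arrays and the 1 RetSat shRNA array, assuming that the lone array varies like the others. The code of the fit was run on simulated arrays with the same small spread for every gene and large changes, unlike these data. That run cannot show how well the fit finds changes here. Alternatives were other offsets, scalings, filters and probe set rules, a robust prior and each empty-vector array left out. All members are named, with up to 4 tested genes in each group of other pathway genes, those with the largest smaller difference from the 2 empty-vector arrays. Having 3 arrays limits the precision.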

Additional observations from a re-analysis of the deposited data

How the results depend on the processing

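No paired analysis was run, because the sources used here do not say what the numbers in the array titles stand for. The shRNA array carries the number 2, as does the control array that it correlates with more closely (0.985, against 0.923 for empty vector 1). Whether these arrays were prepared together is not stated. In every fit run, 0 members passed limma. The count above both empty-vector arrays was 18 of 32 with either other offset (34.5% and 34.4% of all tested genes) and with quantile normalization (36.3% of all). It was 17 of 31 with the stricter filter (37.0% of all) and 14 of 32 with all probe sets averaged (32.3% of all). With arrays centred on their medians it was 23 of 32, where 45.4% of all tested genes lay above both and 18.3% below (members below both, 0). Members below both numbered 0, but 1 after quantile normalization (21.9% of all tested genes) and 7 with all probe sets averaged (28.6% of all). The count at least 0.32 (log2) from both was 2, and 1 after quantile normalization, with the stricter filter or with probe sets averaged. All of these lay above both, beside 5.49% of all tested genes in the main setting and 7.24%, 2.74% and 5.57% in the others, in that order. The 1 left with the stricter filter was Npc2. Its log2 difference from the control mean, 0.38 in the main setting, was 0.22 after quantile normalization and 0.066 with probe sets averaged. Both are under the threshold, so Npc2 was not counted in those settings. With 1 empty-vector array left out, 6 to 8 members lay below the other, 3 to 15 were at least 0.32 from it, and the members' median was 0.14 to 0.28 against 0.17 (the higher values without empty vector 2).

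Log2 differences from the control mean that changed sign, with no call in any case, were as follows. With arrays centred, Ctsl came to 0.067, Lgmn to 0.056, Gaa to 0.069, Ppt1 to 0.041 and Becn1 to 0.016. After quantile normalization Gusb came to -0.0073. With probe sets averaged, Ctsa came to -0.017, Ctsb to -0.18, Gaa to 0.090, Gusb to -0.019, Neu1 to -0.19, Mcoln1 to -0.29, Atp6v1h to -0.016, Becn1 to 0.057, Atg5 to -0.12 and Atg12 to -0.43. Leaving out each control array in turn gave -0.19 to 0.15 for Ctsl, -0.21 to 0.15 for Lgmn, -0.017 to 0.29 for Hexa, -0.088 to 0.047 for Gaa, -0.043 to 0.050 for Gusb, -0.20 to 0.10 for Ppt1, -0.43 to 0.10 for Lamp2, -0.077 to 0.25 for Mcoln1, -0.56 to 0.17 for Atp6v1a, -0.22 to 0.36 for Atp6v1h, -0.00031 to 0.35 for Map1lc3b, -0.11 to 0.55 for Gabarapl1, -0.15 to 0.0050 for Becn1 and -0.028 to 0.31 for Atg7. The cause was not tested. 13 of the 32 members kept their sign under all of these. No detection calls were used, so dim signals such as Tfeb on empty vector 1 may lie at background.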
